A study of Mus musculus with 26 samples.

Results

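Integrins are adhesion receptors made of 1 alpha and 1 beta subunit, and 10 of their subunit genes were followed here among the 52636 genes listed for each library. They were chosen by name and not by a rule on measured values, but with earlier results of these data known. They were the alpha subunits Itga4, Itga5, Itga6, Itgal, Itgam and Itgax and the beta subunits Itgb1, Itgb2, Itgb3 and Itgb7. Each had a single entry in the files, and all 10 passed the filter on low counts in every comparison.

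RNA was sequenced from bone marrow of wild-type mice and of Prss57-/- mice (labelled NSP4 KO), which lack exon 2 of the gene for neutrophil serine protease 4 (NSP4) in the whole animal, were made in C57BL/6N embryonic stem cells and were compared with age-matched littermates. Granulocyte-macrophage progenitors (GMPs) and common myeloid progenitors (CMPs) were sorted from female mice, with 4 libraries per genotype each, and sequenced in a single run. Both gates took cells without lineage markers or SCA-1 and with CD117 and CD34, and GMPs differed from CMPs by high CD16/32. CD11b, the product of Itgam, was among the lineage markers that both gates excluded, so Itgam was read in cells chosen for low surface CD11b.

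Bone marrow-derived mast cells (BMMCs, labelled BMMC-P3, where the meaning of P3 is not given) were grown from sorted GMPs of male mice with interleukin-3 and stem cell factor, with 5 libraries per genotype, and sequenced in another run. In comparisons of BMMCs with progenitors, the cell type, the culture, the sex and the run therefore cannot be told apart, while the genotypes within a cell type shared sex and run. The paper counts the GMP and BMMC libraries as biological replicates. Neither it nor the labels say that each library came from its own mouse, so p-values measure the spread between libraries.

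As background, the beta chain sets which alpha chains a cell can pair and what it can bind. The beta2 integrins are confined to leukocytes, where Itgb2 (CD18) pairs with Itgal (CD11a, forming LFA-1), Itgam (CD11b, forming Mac-1) and Itgax (CD11c). Itgb1 pairs with many alpha chains, among them Itga4 (VLA-4, which binds VCAM-1 and fibronectin), Itga5 (the fibronectin receptor) and Itga6 (a laminin receptor). Itgb7 pairs with Itga4 to bind MAdCAM-1, and alpha4beta7 is known for the homing of mast cell progenitors to the intestine. Itgb3 pairs with Itga2b in the fibrinogen receptor of platelets and megakaryocytes, and with Itgav in the vitronectin receptor.

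Levels are given as normalized RPKM (nRPKM, reads per kilobase of gene scaled by a size factor per library), which compares genes per length, and fold changes come from edgeR's quasi-likelihood test on the counts, adjusted over all genes tested by the Benjamini-Hochberg method. A gene was called at an adjusted p under 0.01 with at least a 2-fold difference. Depth was 32078404 to 53264762 reads on genes per progenitor library and 18627626 to 28647216 per BMMC library. Prss57, the deleted gene, had 18064 to 26556 reads per library in wild-type GMPs and 6 to 25 in Prss57-/- GMPs, and 2261 to 3926 against 1 in every library in CMPs. BMMCs had 2 to 27 Prss57 reads in wild-type libraries and 0 in all Prss57-/- libraries, so the labels held in the progenitors and the gene was near the floor of 3 reads in BMMCs.

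The BMMC label was checked against cell type markers. All 8 mast cell markers were at 1 nRPKM or more in every BMMC library, with a summed level of 30935 to 46484 nRPKM in the wild-type libraries. Of 10 macrophage and dendritic cell markers, 9 also reached 1 nRPKM in every BMMC library (the exception was Flt3). In every GMP library 9 of the 10 reached it too, and in CMP libraries 8 to 9, so this count did not set BMMCs apart. The summed level of these markers was 10747 to 16134 nRPKM in wild-type BMMCs against 359 to 487 in wild-type GMPs. Their part in the differences between BMMCs and progenitors given below was not tested. GMP markers summed to 30029.7 to 37835 nRPKM in wild-type GMPs and 4194 to 8424 in wild-type CMPs, megakaryocyte and erythroid side markers to 97.1 to 140.2 and 1223 to 1927, and eosinophil and basophil markers to 2193 to 2978 and 30.8 to 72.6, while lymphocyte markers stayed at or under 2.16 in every library. Library 3 of the Prss57-/- BMMCs stood apart, with a macrophage and dendritic cell sum of 1117 and a mast cell sum of 75378 nRPKM, and the fold changes of Prss57-/- BMMCs against progenitors are also given without it. It was also outside the range of the other 9 BMMC libraries in its megakaryocyte markers (91.7 against 553 to 986), neutrophil markers (29.8 against 50.6 to 193), eosinophil and basophil markers (69.7 against 134 to 289), lymphocyte markers (0.835 against 0.999 to 2.16), markers of CMPs and the megakaryocyte and erythroid side (955 against 339 to 551) and GMP markers (2914 against 1301 to 2410.3), each as summed nRPKM, and the part of these in its subunit values was not tested. In Prss57-/- CMP library 2, all 10 subunits were below their group mean, and log2 levels over all genes relative to the group mean fell by 0.357 per doubling of gene length, against a range of -0.0888 to 0.330 in the other CMP libraries. Prss57-/- CMP library 1 went the other way, with a rise of 0.330 and all 10 subunits above their group mean. Libraries 3 and 4 of that group were closer to each other than to either of these. In GMP libraries the slope per doubling of gene length ran from -0.199 (wild-type library 1) to 0.151 (Prss57-/- library 1). Of the 10 subunits, 3 and 9 were above their group mean in these 2 libraries. The part of gene length in the subunit levels was not tested.

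The subunits covered a wide range within each cell type, and the order of their levels differed between cell types. In wild-type GMPs, Itgb1 was highest at 52.3 ± 1.39 nRPKM (SD, n = 4), followed by Itgal, Itgb2, Itgb7, Itga5, Itga6, Itga4, Itgb3, Itgam and Itgax, which was lowest at 0.314 ± 0.0297. Neighbours in this order from Itgb2 to Itga4 overlapped in their library ranges, while Itgb1, Itgal, Itgb3, Itgam and Itgax were each separate from the next. In wild-type CMPs, Itgb1 was again highest at 69.8 ± 6.89 nRPKM, Itgb3 moved up to the second place at 19.8 ± 1.93, and Itgam and Itgax were lowest. Every neighbouring pair below Itgb1 overlapped in its library ranges there, except that Itgam lay below Itga4. In wild-type BMMCs, Itgb2 led at 406 ± 59.5 nRPKM (SD, n = 5), followed by Itgb1, Itgb7, Itgam, Itgb3, Itgax, Itga5, Itgal, Itga6 and Itga4, which was lowest at 7.88 ± 1.16. There the ranges of Itgb1 and Itgb7 overlapped, as did those of neighbours from Itgam to Itgax and from Itga5 to Itga6, and the remaining neighbours were separate. Among 11833 genes at a mean of 1 nRPKM or more in wild-type BMMCs, Itgb2 stood at percentile 99.1, Itgb1 at 98.1 and Itgb7 at 98.0.

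**Figure D1:**
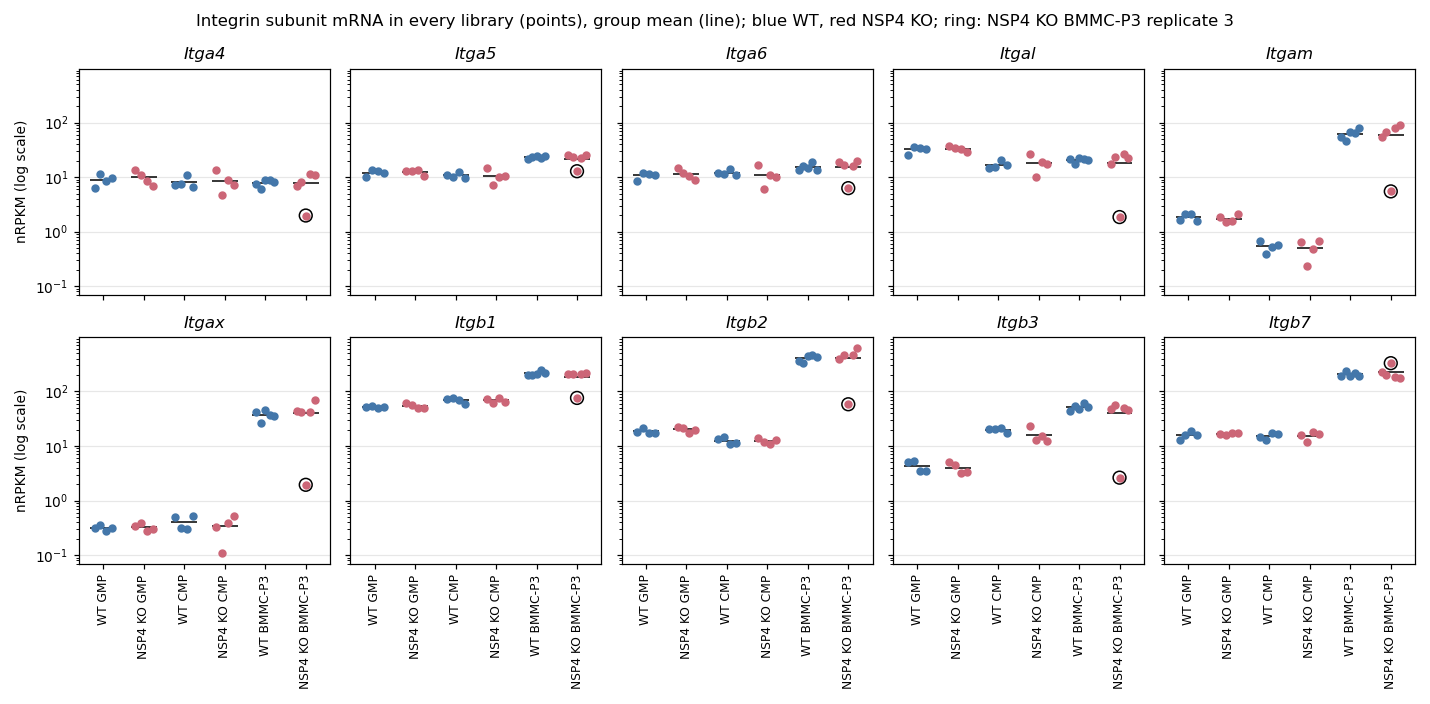
Level of each of the 10 subunits in all 26 libraries, in nRPKM on a log axis, with 1 point per library, a line at the group mean, wild-type in blue, Prss57-/- (NSP4 KO) in red and Prss57-/- BMMC library 3 ringed. Itgam, Itgax and Itgb2 sit far higher in BMMCs than in progenitors, Itgb3 is lowest in GMPs, and the ringed library lies below all 9 other BMMC libraries for every subunit except Itgb7.

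As context for the differences described below, the promoter sequence of 4 subunits is given. Of the 10 subunits, 6 were matched by symbol to the RefSeq promoter table (Itga4, Itga5, Itgam, Itgax, Itgb1 and Itgb7; GRCm38.p6). Shown are 240 bases, from 250 to 11 bases before the start of the transcript, on the gene's strand. Itgam and Itgax are shown as the subunits with the largest differences between BMMCs and progenitors, Itgb7 as the only one higher in BMMC library 3, and Itga4 as a subunit with like levels in all 3 cell types. The positions are chr7:128062390-128062629 (+) for Itgam, chr7:128129300-128129539 (+) for Itgax, chr15:102231946-102232185 (-) for Itgb7 and chr2:79255176-79255415 (+) for Itga4. Capitals mark matches, on either strand, to 5 short motifs: GAGGAA of PU.1 and other ETS factors, AGATAA of GATA factors, TGTGGT of RUNX factors, TGANTCA of AP-1 and GGGCGG of SP1.
Itgam: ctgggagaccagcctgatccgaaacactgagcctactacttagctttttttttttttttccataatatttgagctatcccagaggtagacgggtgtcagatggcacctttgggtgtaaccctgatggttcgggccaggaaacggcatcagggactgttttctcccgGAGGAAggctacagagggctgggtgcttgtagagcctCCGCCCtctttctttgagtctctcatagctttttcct
Itgax: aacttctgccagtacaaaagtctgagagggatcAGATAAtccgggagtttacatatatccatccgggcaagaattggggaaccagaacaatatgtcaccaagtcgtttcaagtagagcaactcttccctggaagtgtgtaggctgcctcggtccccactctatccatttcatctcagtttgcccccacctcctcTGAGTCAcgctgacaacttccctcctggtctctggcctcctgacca
Itgb7: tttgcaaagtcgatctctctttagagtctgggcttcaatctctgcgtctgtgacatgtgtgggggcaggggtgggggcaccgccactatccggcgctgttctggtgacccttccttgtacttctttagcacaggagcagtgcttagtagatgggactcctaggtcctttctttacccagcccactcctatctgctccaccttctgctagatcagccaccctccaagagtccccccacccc
Itga4: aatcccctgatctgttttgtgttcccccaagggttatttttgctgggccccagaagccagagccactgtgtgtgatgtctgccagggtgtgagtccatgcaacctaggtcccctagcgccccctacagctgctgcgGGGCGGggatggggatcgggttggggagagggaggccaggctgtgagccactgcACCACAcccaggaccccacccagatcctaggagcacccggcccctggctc

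GAGGAA was found in the windows of Itgam and Itga5 and in 22.3% of all 32851 promoters of the table. Itgax held AGATAA, found in 9.74% of all promoters, and the AP-1 motif TGANTCA, found in 6.58%. Itga4 held TGTGGT, found in 13.6% of all promoters, and GGGCGG, found in 31.3%, was in the windows of Itga4, Itga5, Itgam and Itgb1. The Itgb7 window held none of these letters. No motif was thus shared by all 6 windows, a match shows no binding, and none of the motifs overlapped another in the 4 windows shown.

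Of the 10 subunits, Itgb2 and its partners Itgam and Itgax had the largest differences between BMMCs and progenitors. Itgb2 (chromosome 10, 77530252 to 77565708, plus strand, GRCm38) encodes the shared beta chain. In GMPs, Itgb2 was at 18.1, 21.6, 17.0 and 17.4 nRPKM in wild-type libraries 1 to 4 and at 22.4, 20.96, 17.5 and 19.8 in Prss57-/- libraries 1 to 4. In CMPs, Itgb2 was at 13.6, 14.4, 10.8 and 11.5 nRPKM in the wild-type libraries and at 14.3, 11.8, 11.04 and 13.03 in the Prss57-/- libraries. In BMMCs, Itgb2 was at 357, 329.7, 452, 465 and 425 nRPKM in wild-type libraries 1 to 5 and at 397, 467, 58.2, 469.9 and 633 in Prss57-/- libraries 1 to 5. BMMC library 3 of the Prss57-/- group was the lowest of the 10 BMMC libraries, yet above every progenitor library, so BMMCs and progenitors did not overlap. Wild-type BMMCs exceeded wild-type GMPs 20.5-fold (log2 fold change 4.36, SE 0.15, edgeR adjusted p = 1.33e-10) and wild-type CMPs 30.2-fold (log2 fold change 4.92, SE 0.16, edgeR adjusted p = 5.04e-11). The difference from GMPs was 4.23 in the Prss57-/- libraries (SE 0.59, edgeR adjusted p = 1.24e-04) and 4.52 (SE 0.16) without library 3. Between the progenitors, wild-type GMPs were above wild-type CMPs in every library, but by less than 2-fold (log2 fold change 0.58, SE 0.13, edgeR adjusted p = 0.00592), and Prss57-/- GMPs likewise (log2 fold change 0.73, SE 0.15, edgeR adjusted p = 0.00737). Fewer cells of a type and less RNA per cell cannot be told apart in such bulk samples.

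Itgam (chromosome 7, 128062640 to 128118491, plus strand) encodes CD11b, the alpha chain of Mac-1, which binds complement iC3b, fibrinogen and ICAM-1. In GMPs, Itgam was at 1.63, 2.14, 2.10 and 1.60 nRPKM in wild-type libraries 1 to 4 and at 1.83, 1.53, 1.54 and 2.06 in Prss57-/- libraries 1 to 4. In CMPs, Itgam was at 0.666, 0.391, 0.526 and 0.573 nRPKM in the wild-type libraries and at 0.640, 0.239, 0.481 and 0.664 in the Prss57-/- libraries. In BMMCs, Itgam was at 53.3, 46.5, 67.8, 65.3 and 78.8 nRPKM in wild-type libraries 1 to 5 and at 53.7, 67.4, 5.47, 80.6 and 89.8 in Prss57-/- libraries 1 to 5. The 3 cell types did not overlap in either genotype: CMPs were lowest, with 33 to 206 reads per library, GMPs came next and BMMCs were highest. GMPs exceeded CMPs 3.51-fold in wild-type mice (log2 fold change 1.81, SE 0.20, edgeR adjusted p = 8.38e-05) and 3.50-fold in Prss57-/- mice (log2 fold change 1.81, SE 0.32, edgeR adjusted p = 0.00371). Neutrophil markers moved with this difference: 6 of 7 were called higher in wild-type GMPs, and their sum was 1512 to 3297 nRPKM there against 10.4 to 31.4 in wild-type CMPs, and their part in the Itgam difference was not tested. The Prss57-/- call was lost with library-size scaling (edgeR adjusted p = 0.0130) as well as without Prss57-/- CMP library 3 (0.0163) or any 1 of the 4 Prss57-/- GMP libraries (0.0113 to 0.0135). The gap between BMMCs and either progenitor was wider still. BMMCs exceeded GMPs 31.3-fold in wild-type libraries (log2 fold change 4.97, SE 0.19, edgeR adjusted p = 3.52e-10), and the log2 difference in Prss57-/- libraries was 5.00 (SE 0.71), or 5.30 (SE 0.19) without library 3. Over CMPs, the wild-type BMMC difference was 109-fold (log2 fold change 6.77, SE 0.22, edgeR adjusted p = 4.61e-11).

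Itgax (chromosome 7, 128129547 to 128150657, plus strand) encodes CD11c, an alpha chain typical of dendritic cells and some macrophages, and lies next to Itgam on the same strand. In GMPs, Itgax was at 0.314, 0.351, 0.278 and 0.314 nRPKM in wild-type libraries 1 to 4 and at 0.344, 0.380, 0.275 and 0.299 in Prss57-/- libraries 1 to 4. In CMPs, Itgax was at 0.490, 0.314, 0.295 and 0.527 nRPKM in the wild-type libraries and at 0.321, 0.107, 0.391 and 0.522 in the Prss57-/- libraries. In BMMCs, Itgax was at 41.5, 26.4, 46.0, 36.8 and 34.8 nRPKM in wild-type libraries 1 to 5 and at 44.7, 41.7, 1.94, 41.4 and 69.0 in Prss57-/- libraries 1 to 5. In all 16 progenitor libraries Itgax stayed under 1 nRPKM, with 13 to 111 reads per library, and every BMMC library was above 1. This was the largest difference among the subunits between BMMCs and GMPs, 110.3-fold in wild-type libraries (log2 fold change 6.78, SE 0.20, edgeR adjusted p = 5.20e-11). It was 6.83 on the log2 scale in Prss57-/- libraries (SE 0.91, edgeR adjusted p = 9.05e-05) and 7.14 (SE 0.22) without library 3. GMPs and CMPs overlapped in Itgax and did not pass the test (log2 fold change -0.35, SE 0.27, edgeR adjusted p = 0.320 in wild-type mice).

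Itgal (chromosome 7, 127296260 to 127335138, plus strand) encodes CD11a, the alpha chain of LFA-1, which binds the ICAM proteins. In GMPs, Itgal was at 25.2, 36.1, 34.6 and 33.4 nRPKM in wild-type libraries 1 to 4 and at 38.0, 34.1, 32.4 and 28.7 in Prss57-/- libraries 1 to 4. In CMPs, Itgal was at 14.7, 15.2, 20.8 and 16.9 nRPKM in the wild-type libraries and at 26.03, 10.0, 18.7 and 17.5 in the Prss57-/- libraries. In BMMCs, Itgal was at 21.8, 17.5, 22.1, 21.6 and 20.3 nRPKM in wild-type libraries 1 to 5 and at 17.3, 23.0, 1.85, 27.0 and 22.8 in Prss57-/- libraries 1 to 5. Unlike Itgam and Itgax, Itgal was highest in GMPs, whose libraries lay above all CMP libraries of the same genotype, and BMMCs lay in or near the CMP range, except Prss57-/- library 3 far below it. The GMP difference from CMPs passed the p threshold but not the fold in wild-type mice (log2 fold change 0.95, SE 0.16, edgeR adjusted p = 0.00101), and the adjusted p was 0.0400 with a log2 fold change of 0.92 in the edgeR test of Prss57-/- mice. Wild-type BMMCs were lower than wild-type GMPs, again by less than 2-fold (log2 fold change -0.74, SE 0.11, edgeR adjusted p = 6.80e-05). In Prss57-/- libraries the log2 difference of Itgal was -0.95 (SE 0.55, edgeR adjusted p = 0.141) from GMPs and -0.08 (SE 0.58, edgeR adjusted p = 0.909) from CMPs. Without BMMC library 3 it was -0.65 (SE 0.14, edgeR adjusted p = 0.00105) and 0.24 (SE 0.28, edgeR adjusted p = 0.451). So Itgal and its beta chain did not move together across the cell types. Relative to Itgb2, Itgal was at a ratio of 1.75 ± 0.285 (SD, n = 4) in wild-type GMPs and 1.38 ± 0.409 in wild-type CMPs, but 0.0514 ± 0.00590 (SD, n = 5) in wild-type BMMCs. The Itgam to Itgb2 ratio was 0.0436 ± 0.0110 in wild-type CMPs, 0.101 ± 0.0154 in wild-type GMPs and 0.153 ± 0.0187 in wild-type BMMCs, and the Itgax to Itgb2 ratio was 0.0327 ± 0.0104, 0.0170 ± 8.63e-04 and 0.0919 ± 0.0165.

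Itgb1 (chromosome 8, 128685654 to 128733200, plus strand) encodes the beta1 chain and was the highest beta subunit in both progenitors. In GMPs, Itgb1 was at 52.5, 53.6, 50.4 and 52.9 nRPKM in wild-type libraries 1 to 4 and at 62.1, 56.0, 50.6 and 49.0 in Prss57-/- libraries 1 to 4. In CMPs, Itgb1 was at 71.8, 76.3, 70.8 and 60.1 nRPKM in the wild-type libraries and at 73.5, 60.6, 75.2 and 64.4 in the Prss57-/- libraries. In BMMCs, Itgb1 was at 197, 204, 205, 251 and 219 nRPKM in wild-type libraries 1 to 5 and at 207, 209, 76.1, 207 and 220.1 in Prss57-/- libraries 1 to 5. All BMMC libraries were at 197 nRPKM or more except Prss57-/- library 3, which lay near the upper end of the CMP range. Wild-type BMMCs were 3.85-fold above GMPs (log2 fold change 1.95, SE 0.09, edgeR adjusted p = 2.34e-09) and 2.89-fold above CMPs (log2 fold change 1.53, SE 0.11, edgeR adjusted p = 3.45e-08). In Prss57-/- libraries the log2 differences were 1.66 from GMPs (SE 0.29, edgeR adjusted p = 4.88e-04) and 1.32 from CMPs (SE 0.30, edgeR adjusted p = 0.00270), and without library 3 they were 1.86 (SE 0.10) and 1.54 (SE 0.15). Both differences came near those of the wild-type libraries without it. The call against Prss57-/- CMPs was lost with library-size scaling (edgeR adjusted p = 0.0118) and without Prss57-/- CMP library 4 (0.0108). Wild-type CMPs lay above wild-type GMPs in every library, without passing the threshold (log2 fold change -0.40, SE 0.10, edgeR adjusted p = 0.0118).

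Itga4 (chromosome 2, 79255426 to 79333123, plus strand) is the alpha chain of VLA-4 and of alpha4beta7. In GMPs, Itga4 was at 6.42, 11.2, 8.59 and 9.46 nRPKM in wild-type libraries 1 to 4 and at 13.5, 10.7, 8.42 and 6.97 in Prss57-/- libraries 1 to 4. In CMPs, Itga4 was at 7.12, 7.58, 11.02 and 6.59 nRPKM in the wild-type libraries and at 13.2, 4.64, 8.92 and 7.28 in the Prss57-/- libraries. In BMMCs, Itga4 was at 7.45, 6.06, 8.77, 8.83 and 8.28 nRPKM in wild-type libraries 1 to 5 and at 6.85, 8.17, 1.97, 11.2 and 10.9 in Prss57-/- libraries 1 to 5. The group means lay between 7.83 and 9.91 nRPKM, the groups overlapped in every pairing of cell types, and Itga4 was called in none of the comparisons. In wild-type mice the log2 differences ran from -0.27 (SE 0.15, wild-type BMMCs against GMPs) to 0.16 (SE 0.21, wild-type GMPs against CMPs), and a 2-fold difference lay outside 2 SE of each. The widest departure was -0.44 (SE 0.42) in Prss57-/- BMMCs against GMPs, which was -0.18 (SE 0.21) without library 3. Itga4 therefore stayed level while its beta partners did not. With Itgb1 and Itgb7 both higher in BMMCs, the Itgb1 to Itga4 ratio went from 6.10 ± 1.46 (SD, n = 4) in wild-type GMPs to 27.7 ± 3.81 (SD, n = 5) in wild-type BMMCs, and the Itgb7 to Itga4 ratio from 1.81 ± 0.319 to 27.0 ± 7.22.

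Itga5 (chromosome 15, 103344286 to 103366763, minus strand) is the alpha chain of the classical fibronectin receptor. In GMPs, Itga5 was at 10.1, 13.3, 12.8 and 12.1 nRPKM in wild-type libraries 1 to 4 and at 13.2, 12.8, 13.6 and 10.4 in Prss57-/- libraries 1 to 4. In CMPs, Itga5 was at 11.02, 9.99, 12.7 and 9.62 nRPKM in the wild-type libraries and at 14.9, 7.10, 9.88 and 10.3 in the Prss57-/- libraries. In BMMCs, Itga5 was at 21.3, 23.2, 24.1, 22.6 and 24.0 nRPKM in wild-type libraries 1 to 5 and at 24.9, 23.3, 12.8, 22.8 and 25.1 in Prss57-/- libraries 1 to 5. Every wild-type BMMC library was above every wild-type progenitor library, but the difference stayed near or under 2-fold: 0.84 on the log2 scale against GMPs (SE 0.09, edgeR adjusted p = 3.29e-06) and 1.00 against CMPs (SE 0.10, edgeR adjusted p = 6.91e-07). The latter lay just short of the 2-fold threshold and was called with DESeq2, with RLE size factors, in both limma voom fits and in a fit of all 26 libraries. GMPs and CMPs overlapped, at 12.1 ± 1.39 and 10.8 ± 1.36 nRPKM (SD, n = 4 each) in wild-type mice. In Prss57-/- libraries the log2 difference of Itga5 was 0.71 (SE 0.19, edgeR adjusted p = 0.00749) from GMPs and 0.94 (SE 0.26, edgeR adjusted p = 0.00812) from CMPs. Without BMMC library 3 it was 0.85 (SE 0.10, edgeR adjusted p = 1.27e-05) and 1.11 (SE 0.22, edgeR adjusted p = 0.00119), and the difference from CMPs was then called. The difference from CMPs was also called without Prss57-/- CMP library 1 (log2 fold change 1.19, edgeR adjusted p = 0.00234).

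Itga6 (chromosome 2, 71745616 to 71858416, plus strand) is the alpha chain of the laminin receptor alpha6beta1. In GMPs, Itga6 was at 8.38, 11.9, 11.5 and 11.1 nRPKM in wild-type libraries 1 to 4 and at 14.4, 11.7, 10.3 and 8.79 in Prss57-/- libraries 1 to 4. In CMPs, Itga6 was at 11.9, 11.2, 14.3 and 10.8 nRPKM in the wild-type libraries and at 16.6, 6.10, 11.1 and 10.00 in the Prss57-/- libraries. In BMMCs, Itga6 was at 13.3, 15.9, 14.7, 18.9 and 13.7 nRPKM in wild-type libraries 1 to 5 and at 18.9, 16.5, 6.27, 15.7 and 20.0 in Prss57-/- libraries 1 to 5. Its levels were alike across cell types, and wild-type BMMCs were above wild-type GMPs by less than 2-fold (log2 fold change 0.42, SE 0.13, edgeR adjusted p = 0.00856). It did not pass the test between wild-type GMPs and CMPs (log2 fold change -0.15, SE 0.15, edgeR adjusted p = 0.420) or between wild-type BMMCs and CMPs (log2 fold change 0.25, SE 0.12, edgeR adjusted p = 0.0710). In Prss57-/- libraries the log2 difference of Itga6 was 0.35 (SE 0.30, edgeR adjusted p = 0.304) from GMPs and 0.39 (SE 0.36, edgeR adjusted p = 0.340) from CMPs. Without BMMC library 3 it was 0.56 (SE 0.15, edgeR adjusted p = 0.00443) and 0.62 (SE 0.27, edgeR adjusted p = 0.0636).

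Itgb7 (chromosome 15, 102215995 to 102231944, minus strand) encodes the beta chain of alpha4beta7 and alphaEbeta7. In GMPs, Itgb7 was at 12.6, 16.1, 18.5 and 15.8 nRPKM in wild-type libraries 1 to 4 and at 16.4, 16.1, 17.6 and 17.5 in Prss57-/- libraries 1 to 4. In CMPs, Itgb7 was at 14.9, 12.9, 17.3 and 16.6 nRPKM in the wild-type libraries and at 15.6, 11.8, 18.0 and 16.3 in the Prss57-/- libraries. In BMMCs, Itgb7 was at 191, 240.4, 195, 216 and 189.6 nRPKM in wild-type libraries 1 to 5 and at 224, 204, 330.1, 184 and 178 in Prss57-/- libraries 1 to 5. GMPs and CMPs overlapped at about the same level, every BMMC library lay far above them, and Prss57-/- BMMC library 3, the lowest for all other subunits, was the highest for Itgb7. Wild-type BMMCs exceeded GMPs 12.3-fold (log2 fold change 3.62, SE 0.13, edgeR adjusted p = 2.59e-10) and CMPs 12.5-fold (log2 fold change 3.65, SE 0.12, edgeR adjusted p = 5.27e-11). In Prss57-/- libraries the log2 differences were 3.64 (SE 0.21) and 3.76 (SE 0.26), or 3.46 (SE 0.10) and 3.60 (SE 0.20) without library 3. Itgae, the other alpha partner of Itgb7, was low throughout, with 24 to 93 reads per library in wild-type BMMCs and 1 to 28 in wild-type GMPs.

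Itgb3 (chromosome 11, 104608000 to 104670476, plus strand) encodes the beta3 chain. In GMPs, Itgb3 was at 5.05, 5.37, 3.55 and 3.45 nRPKM in wild-type libraries 1 to 4 and at 5.00, 4.40, 3.15 and 3.40 in Prss57-/- libraries 1 to 4. In CMPs, Itgb3 was at 20.1, 20.7, 21.4 and 17.0 nRPKM in the wild-type libraries and at 22.8, 12.6, 15.1 and 12.3 in the Prss57-/- libraries. In BMMCs, Itgb3 was at 43.2, 53.8, 47.4, 62.1 and 52.6 nRPKM in wild-type libraries 1 to 5 and at 47.1, 55.5, 2.63, 50.3 and 45.5 in Prss57-/- libraries 1 to 5. GMPs were lowest and overlapped neither CMPs nor, library 3 of the Prss57-/- group aside, BMMCs. CMPs exceeded GMPs 4.50-fold in wild-type mice (log2 fold change -2.17, SE 0.17, edgeR adjusted p = 7.19e-06, GMPs against CMPs) and 3.83-fold in Prss57-/- mice (log2 fold change -1.94, SE 0.25, edgeR adjusted p = 8.03e-04). Megakaryocyte markers moved the same way, with 5 of 6 called higher in wild-type CMPs and a summed level of 734 to 1406 nRPKM there against 22.4 to 86.7 in wild-type GMPs, and their part in the Itgb3 difference was not tested. BMMCs other than library 3 of the Prss57-/- group were higher than both progenitors. Wild-type BMMCs were above GMPs 11.1-fold (log2 fold change 3.48, SE 0.17, edgeR adjusted p = 3.24e-09) and above CMPs 2.45-fold (log2 fold change 1.30, SE 0.12, edgeR adjusted p = 3.40e-07). The last call depends on the scaling, since the log2 difference was 0.98 with library-size normalization, which moves the median of all genes by -0.31 in that comparison and by -0.16 between wild-type GMPs and CMPs. In the Prss57-/- libraries the BMMC differences of Itgb3 were smaller, and their standard errors larger, with the low library 3 than without it. In Prss57-/- libraries, BMMCs and CMPs did not pass the test (log2 fold change 1.25, SE 0.64, edgeR adjusted p = 0.102), while without BMMC library 3 the difference was 1.58 (SE 0.23), edgeR adjusted p = 1.62e-04, and without CMP library 2 as well it was 1.504, edgeR adjusted p = 1.05e-04. The Prss57-/- BMMC difference from GMPs was 3.24 (SE 0.70, edgeR adjusted p = 0.00202), was not called in the limma voom fit without quality weights (2.71, adjusted p = 0.0189), was called in the one with them (3.48, adjusted p = 6.03e-07), and was 3.55 (SE 0.16) without library 3.

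Itga2b, the megakaryocyte partner of Itgb3 and not among the 10, was at 27.0 ± 5.93 nRPKM in wild-type GMPs, 117 ± 18.2 in wild-type CMPs and 344 ± 46.7 in wild-type BMMCs. Although both levels differed widely, the Itga2b to Itgb3 ratio lay between 4.42 and 8.72 in 25 of the 26 libraries, across all 3 cell types, and was 349.6 in Prss57-/- BMMC library 3. Both genes were called lower in wild-type GMPs than in CMPs, with log2 fold changes of -2.17 for Itgb3 and -2.10 (SE 0.17) for Itga2b. The other partner, Itgav, was at 2.15 ± 0.450, 1.16 ± 0.263 and 10.1 ± 1.10 nRPKM in wild-type GMPs, CMPs and BMMCs.

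Over the 10 subunits, fewer were called between GMPs and CMPs than between BMMCs and progenitors, as was the case over all genes. Between wild-type GMPs and CMPs, 1 subunit was called higher (Itgam) and 1 lower (Itgb3), where 12.8% of 14967 genes were called, 6.28% higher and 6.53% lower. The same pair was called in the Prss57-/- comparison, where 8.42% of genes were called, 4.04% higher and 4.38% lower, and both calls held without CMP library 2. Without Prss57-/- CMP library 1, Itgal was called higher in Prss57-/- GMPs as well (log2 fold change 1.15, edgeR adjusted p = 0.00661). The list's median log2 difference between wild-type GMPs and CMPs was 0.10, beside -0.02 over all genes tested. Without overlap between the groups were 5 subunits in the wild-type and 4 in the Prss57-/- comparison, against 31.5% and 28.5% of all genes. At the looser limit of an adjusted p under 0.05 with any fold, 5 of 10 subunits passed in the wild-type and 4 in the Prss57-/- comparison, beside 37.8% and 21.5% of all genes. The wild-type and Prss57-/- comparisons of GMPs with CMPs share no library.

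Between wild-type BMMCs and GMPs, 6 of 10 subunits were called higher (Itgam, Itgax, Itgb1, Itgb2, Itgb3 and Itgb7) and 0 lower, where 51.7% of all genes were called and 27.3% were called higher. All 4 beta subunits and 2 of the 6 alpha subunits made up this count. The Prss57-/- comparison called the same 6, with 47.9% of all genes called and 25.6% higher. Against wild-type CMPs the same 6 were called higher in wild-type BMMCs, with 57.5% of genes called and 29.6% higher, and 5 of them (all but Itgb3) in the Prss57-/- comparison, with 52.3% called and 26.2% higher. Without BMMC library 3, 7 were called in the latter (Itgb3 and Itga5 in addition), with 55.7% of all genes called, and the count against Prss57-/- GMPs stayed at 6, with 51.1%. The list's median log2 difference from GMPs was 2.71 in wild-type BMMCs, beside 0.00 over all genes. Groups without overlap were found for 9 and 7 subunits in the wild-type comparisons with GMPs and CMPs, against 75.3% and 76.9% of all genes. In the Prss57-/- comparisons, which include library 3, these were 6 and 5 subunits, against 65% and 61.3% of all genes, and without it they were 9 and 7, against 76.8% and 72.7%. At an adjusted p under 0.05 with any fold, 9 and 7 subunits passed between BMMCs and GMPs (wild-type and Prss57-/-), beside 81.5% and 73.9% of all genes, and 7 and 6 between BMMCs and CMPs, beside 83.6% and 71.5%. The comparisons of BMMCs with GMPs and with CMPs share the BMMC libraries.

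**Figure D2:**
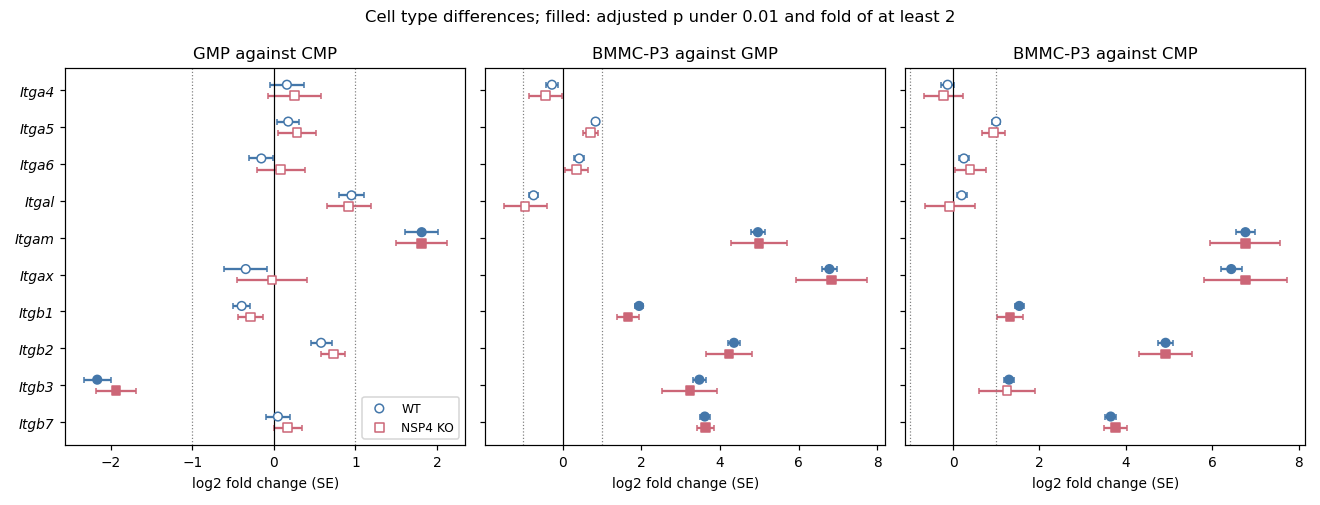
Log2 fold change of each subunit, with its standard error as bars, in wild-type (blue circles) and Prss57-/- (red squares) libraries for GMPs against CMPs, BMMCs against GMPs and BMMCs against CMPs, with filled symbols where the call was made and dotted lines at 2-fold. Itgam and Itgb3 are filled in the left panel with opposite signs, and in the other panels Itgam, Itgax and Itgb2 lie farthest to the right, with wider bars in the Prss57-/- libraries.

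The make-up of the beta chains differed between the cell types. Summed over all 9 beta subunit genes, their level was 97.1 ± 4.44 nRPKM in wild-type GMPs (SD, n = 4), 121 ± 8.34 in wild-type CMPs and 941 ± 86.6 in wild-type BMMCs (n = 5). Itgb1 made up 53.9% ± 1.91 of that sum in wild-type GMPs and 57.3% ± 1.90 in CMPs, but 22.9% ± 1.04 in BMMCs. Itgb2 went from 19.0% ± 1.35 in wild-type GMPs and 10.4% ± 1.16 in CMPs to 43.0% ± 3.37 in BMMCs. Itgb3 held 16.3% ± 0.677 in wild-type CMPs against 4.47% ± 0.935 in GMPs, and Itgb7 held 16.2% ± 2.53, 12.8% ± 2.24 and 22.1% ± 3.18 in wild-type GMPs, CMPs and BMMCs. Among the 18 alpha subunit genes, Itga2b held 27.7% ± 4.81 in wild-type GMPs, 69.4% ± 5.57 in CMPs and 65.1% ± 5.36 in BMMCs, and Itgal, at 33.1% ± 2.45, had the largest mean share in GMPs. Shares of mRNA do not give the proteins or the pairs on the cell surface, which were not measured.

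**Figure D3:**
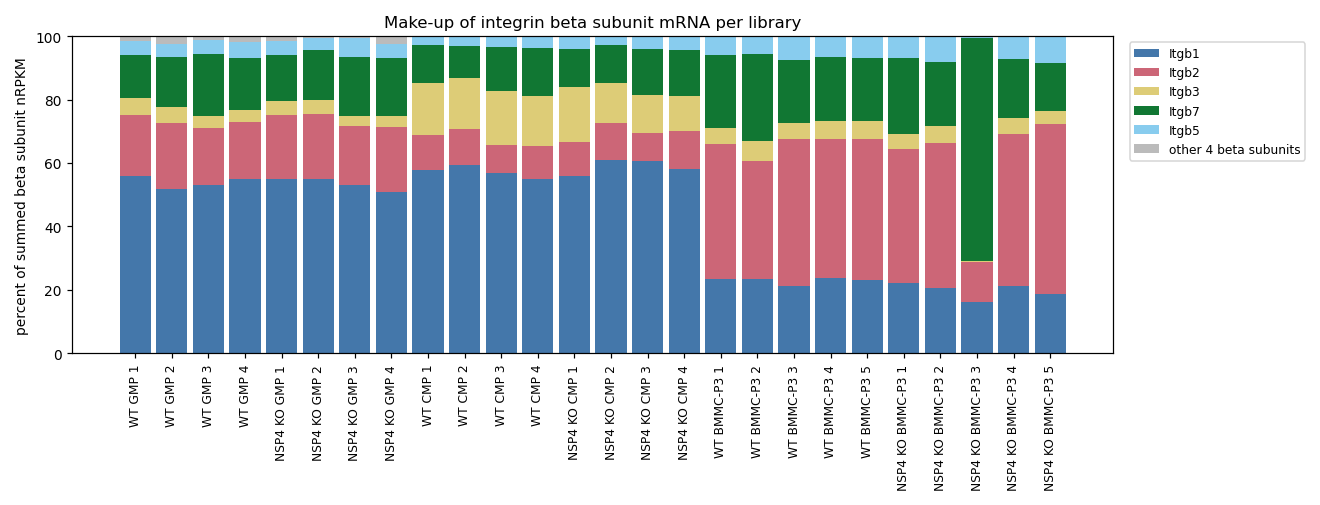
Make-up of beta subunit mRNA in each library, as the percent of summed beta subunit nRPKM taken by Itgb1, Itgb2, Itgb3, Itgb7, Itgb5 and the other 4 beta subunits, with 1 bar per library. Itgb1 takes more than any other beta subunit in all 16 progenitor libraries, Itgb2 takes most in 9 of 10 BMMC libraries, and Itgb7 takes 70.3% in Prss57-/- BMMC library 3.

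The genotypes were compared for the subunits within each cell type. In none of the 3 cell types did any subunit pass the test between Prss57-/- and wild-type libraries. In GMPs, 0 of 10 were called, where 0.00681% of all genes (1 gene) were called, and all edgeR adjusted p-values were 1.00. In CMPs, 0 of 10 were called against 0.0067% of genes (1 gene), and in BMMCs 0 of 10 against 0% (0 genes), again with edgeR adjusted p-values of 1.00, and the CMP count was also 0 without Prss57-/- library 2. At an adjusted p under 0.05, 0 subunits passed in any cell type or in the interaction, beside 0.0136%, 0.0067% and 0% of all genes in GMPs, CMPs and BMMCs and 0% in the interaction. At an unadjusted p under 0.05, edgeR found 119, 76 and 332 of all genes in GMPs, CMPs and BMMCs and 0 of the subunits, whose lowest unadjusted p-values in this model were 0.301, 0.151 and 0.372. Of 14689, 14916 and 13938 genes tested, these counts are fewer than the 1 in 20 marked where nothing differs. The p-values thus ran high, and 0 subunits passing does not show equal levels. Wild-type and Prss57-/- libraries overlapped for all 10 subunits in every cell type, while 0.994%, 0.818% and 0.717% of all genes did not overlap.

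Intervals of 2 SE give the sizes of difference that these libraries leave possible. In GMPs, the log2 differences (Prss57-/- against wild-type) ran from -0.13 for Itgb3 to 0.15 for Itga4, and the intervals of 2 SE each way all lay between -0.51 and 0.58, inside 2-fold. In CMPs, they ran from -0.35 for Itgb3 to 0.08 for Itgal, and the interval of Itgax, -1.16 to 0.60, reached past a 2-fold decrease. In BMMCs, they ran from -0.37 for Itgb3 to 0.12 for Itgb7, with intervals of -1.14 to 1.33 for Itgax, -1.50 to 0.76 for Itgb3, -1.18 to 0.83 for Itgal and -1.14 to 0.99 for Itgam that also reached past 2-fold. Exact two-sided permutation tests on nRPKM gave p from 0.314 to 0.771 in GMPs, 0.200 to 1.00 in CMPs and 0.310 to 1.00 in BMMCs, where the smallest possible values were 0.0286, 0.0286 and 0.00794. The genotype difference did not pass a test of difference between GMPs and CMPs either: 0 of 10 interaction terms were called, as were 0% of all genes (169 of 15900 at an unadjusted p under 0.05, and 0 of the subunits), with edgeR adjusted p-values of 1.00. The 169 genes are again fewer than 1 in 20 of those tested.

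The BMMC comparison was repeated without Prss57-/- library 3, which left smaller standard errors. Itgax then differed by 0.40 on the log2 scale (SE 0.19), the largest of the 10, with 49.2 ± 13.3 nRPKM (SD, n = 4) against 37.1 ± 7.39 in wild-type BMMCs. Itgb2 differed by 0.27 (SE 0.14), Itga4 by 0.23 (SE 0.16) and Itgam by 0.22 (SE 0.18), and none of the 10 had an edgeR adjusted p below 0.707. The exact permutation p-values then ran from 0.0952 to 0.841, with a smallest possible value of 0.00794, and the groups still overlapped for all 10 subunits.

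**Figure D4:**
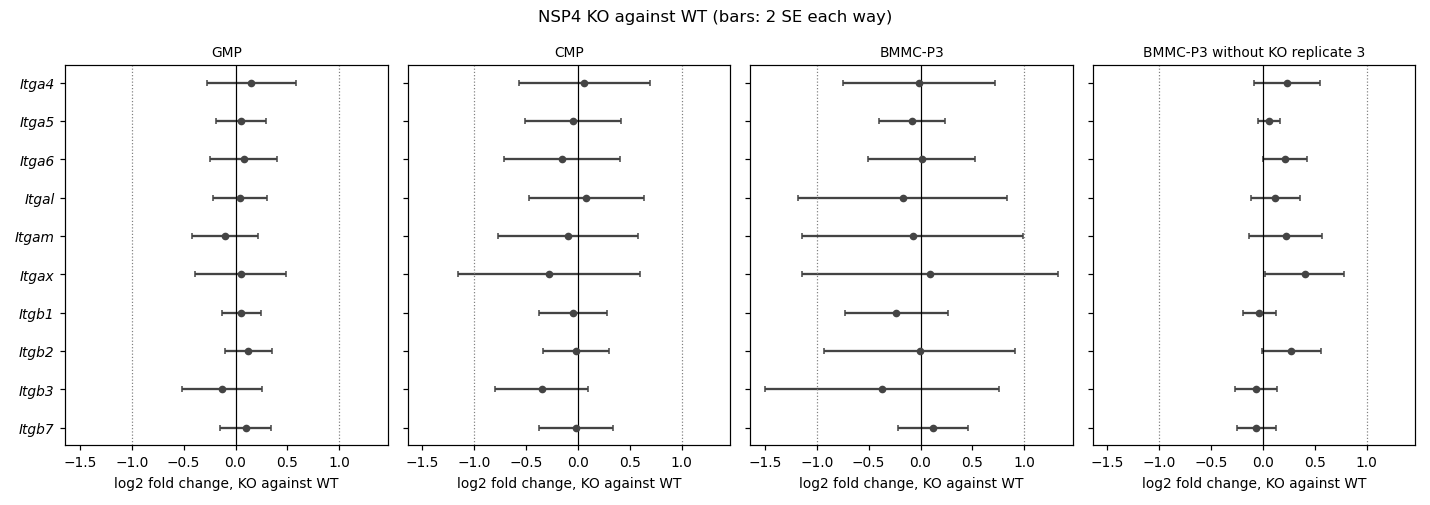
Log2 fold change of each subunit in Prss57-/- against wild-type libraries (points) with 2 standard errors each way (bars), in GMPs, CMPs, BMMCs and BMMCs without Prss57-/- library 3, with dotted lines at 2-fold. All points lie within 2-fold of 0, and the bars of the BMMC panel are much narrower without library 3.

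Prss57-/- BMMC library 3 differed from the other 9 BMMC libraries in all 10 subunits, 9 of which were below the range of the other 9 and 1, Itgb7, above it. Over 11897 genes at a mean of 1 nRPKM or more in BMMCs, 37.0% were below the other 9 and 35.4% above, and 13.3% were at least 2-fold below the other libraries' median. Itgam was at 5.47 against 46.5 to 89.8 nRPKM, Itgax at 1.94 against 26.4 to 69.0, Itgb2 at 58.2 against 329.7 to 633 and Itgal at 1.85 against 17.3 to 27.0. Itgb2 and these alpha partners were thus all low there. Itgb3 was at 2.63 against 43.2 to 62.1 and Itgb5, another partner of Itgav, at 2.06 against 50.3 to 101, while Itga2b was high, at 918 against 222 to 414. The summed macrophage and dendritic cell markers moved with the low subunits, and the summed mast cell markers moved with Itgb7. Of the former, 9 of 10 were present at 1 nRPKM or more in all BMMC libraries, as 9 of 10 were in all GMP libraries. Summed markers of megakaryocytes, neutrophils, eosinophils and basophils, and lymphocytes were low there too, as given above. Those of GMPs and of CMPs and the megakaryocyte and erythroid side were high. The part of any of these lists was not tested.

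Among the other 9 BMMC libraries, a set chosen after the values were seen, some subunits followed the mean log2 level of the macrophage and dendritic cell markers. For Itgam, Pearson's r = 0.95 (exact permutation p = 6.89e-05, adjusted over all genes 0.0249) and Spearman's rho = 0.95 (exact permutation p = 3.53e-04, adjusted 0.0328). Without the 2 libraries farthest from the median marker level r was 0.92, and 0.194% of 11826 genes had an r at least as high. That share was 0.795% for Itga4 and 2.46% for Itgb2, and 4.26% of genes had an r at or below that of Itgb7. For Itgb2, Pearson's r = 0.86 (exact permutation p = 0.00320, adjusted over all genes 0.0618) and Spearman's rho = 0.93 (exact permutation p = 7.50e-04, adjusted 0.0428), with r = 0.82 without the 2 farthest libraries. For Itga4, Pearson's r = 0.91 (exact permutation p = 9.26e-04, adjusted over all genes 0.0401) and Spearman's rho = 0.80 (exact permutation p = 0.0138, adjusted 0.142), with r = 0.78 without the 2 farthest. Itgb7 went the other way, with Pearson's r = -0.82 (exact permutation p = 0.00735, adjusted over all genes 0.0894) and Spearman's rho = -0.77 (exact permutation p = 0.0214, adjusted 0.174) and r = -0.69 without the 2 farthest, and with the mast cell markers it had Pearson's r = 0.90 (exact permutation p = 6.89e-04, adjusted over all genes 0.0797) and Spearman's rho = 0.85 (exact permutation p = 0.00607, adjusted 0.202), r = 0.86 without the 2 farthest.

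Over both marker lists 20 relations were computed for the subunits. Of all genes, 4.03% passed an adjusted p under 0.05 for Pearson's r with the macrophage and dendritic cell markers and 0.144% with the mast cell markers, and 1.75% and 0.0169% passed for Spearman's rho. Of the subunits, Itgam and Itga4 passed for Pearson's r with the first list, Itgam and Itgb2 for Spearman's rho, and none for either with the second list. The remaining subunits had a Pearson r between -0.10 (Itgb3) and 0.77 (Itgal) with the macrophage and dendritic cell markers, and did not pass after adjustment. With the mast cell markers, Pearson's r of the subunits other than Itgb7 ran from -0.86 (Itga4) to 0.49 (Itgb3). It was -0.80 for Itgal, -0.78 for Itgam, -0.74 for Itgax and -0.70 for Itgb2. With both measures centred within each genotype and labels permuted within it, r with the macrophage and dendritic cell markers was 0.98 for Itgam (exact permutation p = 3.47e-04, adjusted 0.0730), 0.80 for Itgb2 (exact permutation p = 0.0247, adjusted 0.175), 0.92 for Itga4 (exact permutation p = 0.00590, adjusted 0.0921) and -0.88 for Itgb7 (exact permutation p = 0.00590, adjusted 0.0921). In that fit no gene passed an adjusted p under 0.05, the lowest over all genes being 0.0730, while 19.8% of all genes had an unadjusted p under 0.05. It had 2880 arrangements, so no p could fall below 3.47e-04. An adjusted p under 0.05 needed many genes tied at that value. The fit therefore cannot show whether a relation was lost by centring. For Itgb7 with the mast cell markers, r was 0.96 for Itgb7 (exact permutation p = 0.00417, adjusted 0.131). The part of other cells in these values was not tested.

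**Figure D5:**
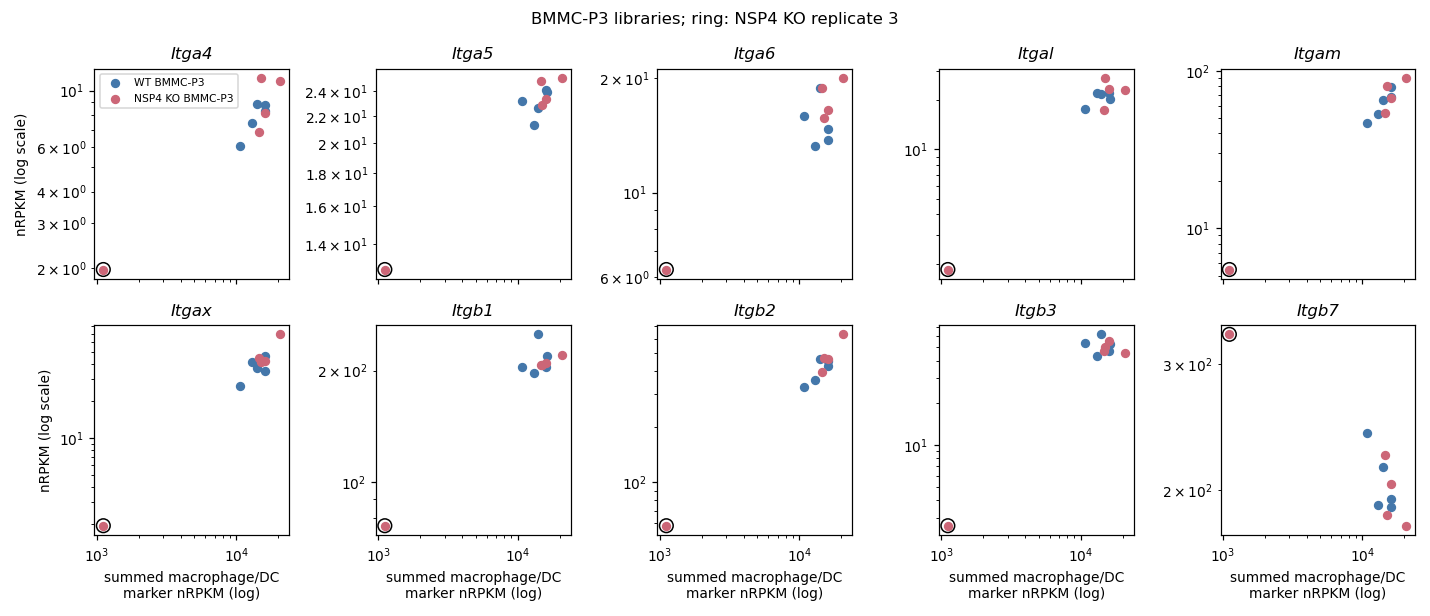
Level of each subunit (nRPKM, log axis) against the summed level of 10 macrophage and dendritic cell markers (nRPKM, log axis) in the 10 BMMC libraries, wild-type in blue, Prss57-/- in red and library 3 ringed. The ringed library stands alone at a marker sum of 1117 nRPKM, and among the others Itgam and Itgb2 rise with the markers and Itgb7 falls.

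The wider integrin pathway was read in 5 further lists, whose counts stand beside the shares of all genes given above and whose medians were the same with genes at or under 3 reads per library in a group set to their bound. Of the 17 remaining subunit genes, 2 were called higher and 2 lower of 10 tested in wild-type GMPs against CMPs, 6 and 2 of 11 in BMMCs against GMPs, and 8 and 2 of 12 in BMMCs against CMPs, with median log2 differences of -0.30, 2.14 and 2.73. At a group mean of 1 nRPKM or more were 5 of the 17 in wild-type GMPs, 3 in CMPs and 5 in BMMCs. Itga1, a collagen receptor chain, was higher in GMPs than in CMPs (log2 fold change 3.03, SE 0.37), and Itgb5 was higher in BMMCs than in GMPs (log2 fold change 3.71, SE 0.14), at 61.6 ± 10.4 against 4.43 ± 0.335 nRPKM. Itgb2l, a relative of Itgb2 known from neutrophils, had 168 to 389 reads in each wild-type GMP library and 0 in every wild-type CMP library, so no fold is given. Itgav was higher in BMMCs than in GMPs (log2 fold change 2.14, SE 0.15).

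Talins, kindlins and the Rap1 GTPases carry the inside-out signal that switches integrins to their active form. Of the 23 genes of this activation list, 3 were called higher and 1 lower of 21 tested in wild-type GMPs against CMPs, 6 and 2 of 22 in BMMCs against GMPs, and 9 and 4 of 22 in BMMCs against CMPs, with median log2 differences of 0.59, 0.41 and 0.50. Tln1, the main talin of blood cells, was higher in GMPs than in CMPs (log2 fold change 1.02, SE 0.25), and Tln2 was higher in GMPs than in CMPs (log2 fold change 2.43, SE 0.57) and in BMMCs than in CMPs (log2 fold change 4.75, SE 0.27). Rasgrp2, the exchange factor that loads Rap1, was higher in GMPs than in CMPs (log2 fold change 1.14, SE 0.11) and lower in BMMCs than in GMPs (log2 fold change -5.73, SE 0.19), at 1.41 ± 0.431 against 70.6 ± 2.44 nRPKM. Rap1b was lower in GMPs than in CMPs (log2 fold change -1.80, SE 0.21), and Fyb, the adaptor ADAP, and its partner Skap1 were higher in BMMCs than in GMPs (log2 fold change 3.64, SE 0.17 for Fyb and log2 fold change 5.37, SE 0.34 for Skap1).

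Kinases and adaptors at the cytoplasmic side pass the signal of bound integrins on. Of 23 such genes, 4 were called higher and 4 lower of 20 tested in wild-type GMPs against CMPs, 13 and 0 of 22 in BMMCs against GMPs, and 14 and 0 of 22 in BMMCs against CMPs, with median log2 differences of 0.23, 1.24 and 1.76. In BMMCs against GMPs none was called lower, and the Src family kinases Src (log2 fold change 5.92, SE 0.21) and Fgr (log2 fold change 4.91, SE 0.22) were among the largest differences. Between the progenitors these kinases split, with Fgr (log2 fold change 2.06, SE 0.40) higher in GMPs and Src (log2 fold change -3.06, SE 0.23) and the focal adhesion kinase Ptk2 (log2 fold change -2.13, SE 0.34) lower.

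Ligands of the subunits were read in the same cells, although many are made by other cells of the marrow. Of 28 ligand genes, 6 were called higher and 5 lower of 19 tested in wild-type GMPs against CMPs, 10 and 5 of 17 in BMMCs against GMPs, and 9 and 5 of 18 in BMMCs against CMPs, with median log2 differences of 0.56, 2.52 and 1.21. Spp1 (osteopontin) was at 1092 ± 199 nRPKM in wild-type BMMCs and 2.08 ± 0.247 in GMPs (log2 fold change 8.94, SE 0.20), and Fn1 (fibronectin) at 470.1 ± 101 and 0.956 ± 0.283 (log2 fold change 8.85, SE 0.30). Vcam1, the VLA-4 ligand, went the other way, at 6.84 ± 0.559 nRPKM in GMPs and 0.0375 ± 0.0235 in BMMCs (log2 fold change -7.57, SE 0.24), where BMMC libraries had 1 to 7 reads. In GMPs against CMPs, Cdh1 (E-cadherin, log2 fold change 5.23, SE 0.44) and C3 (complement, log2 fold change 4.47, SE 0.32) were higher and Vwf (log2 fold change -3.91, SE 0.27) was lower.

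Tetraspanins and other membrane partners of integrins formed the last list. Of its 11 genes, 2 were called higher and 1 lower of 11 tested in wild-type GMPs against CMPs, 6 and 1 of 11 in BMMCs against GMPs, and 6 and 0 of 11 in BMMCs against CMPs, with median log2 differences of -0.04, 1.18 and 1.21. Cd177, a neutrophil partner of Mac-1, was higher in GMPs, at 550 to 1137 reads per library, than in CMPs, at 0 to 8, and Cd9, a tetraspanin of platelets and stem cells, was lower (log2 fold change -2.06, SE 0.25). Slc3a2, the heavy chain CD98, was at 482 ± 63.5 nRPKM in wild-type BMMCs against 58.3 ± 3.21 in GMPs (log2 fold change 2.95, SE 0.12). Between genotypes, 0 genes of any of the 5 lists were called in GMPs, CMPs or BMMCs or in the interaction.

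The genes whose pattern was most like that of each subunit were taken from 12182 genes by Pearson's r of log2 levels over all 26 libraries, which share the gap between BMMCs and progenitors. For Itgam they were Clec4a3 (r = 0.99) and Plaur (0.99), the first a C-type lectin and the second the urokinase receptor, which binds Mac-1. For Itgax they were Cttnbp2nl (r = 0.995) and Myrf (0.99), and for Itgb2 Shisa5 (r = 0.996) and Lpl (0.99), of which Lpl is lipoprotein lipase. Itgal was nearest to the interleukin-6 receptor gene Il6ra (r = 0.98) and Ano10 (0.97), Itgb3 to Pdgfb (r = 0.98) and Lims1 (0.97), of which Lims1 (PINCH-1) is part of the integrin-linked kinase complex, and Itgb7 to Furin (r = 0.997) and Cdkn1a (0.997). Itgb1 was nearest to Picalm (r = 0.99) and Rab3il1 (0.99), Itga4 to Nlrc5 (r = 0.96) and Phactr2 (0.92), Itga5 to Pip4k2b (r = 0.98) and Nf1 (0.98), and Itga6 to Rftn1 (r = 0.91) and Plxnb2 (0.90). The names depend on the settings: 8 of these 20 were kept with a pseudocount of 1 in place of 0.1, and 0 of 20 with the 16 progenitor libraries alone, where Itgax fell under the level required.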

How the data were processed

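RNA from 26 mouse libraries (GMPs, CMPs and BMMCs, each wild-type and Prss57-/-) was made with a stranded total RNA kit and sequenced single-end. The authors aligned reads with GSNAP to GRCm38 and counted those that aligned uniquely within exons. They deposited for each library the raw read counts of 52636 genes (52403 of which had a symbol in the annotation used here, GENCODE release 21 of mouse) and normalized RPKM (nRPKM), obtained, as the files show, by dividing each count by a gene constant and a library size factor (largest relative difference 1.53e-14 over 10604 genes with 20 or more counts in every library). The unique alignment can remove reads from near-identical genes. Reads on genes per library set the precision, and libraries of 1 group differed by more than sampling noise.

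Counts of the groups compared were fitted with edgeR 4.0.16 in R 4.3.3 (TMM, filterByExpr, quasi-likelihood test, robust dispersion), and the Benjamini-Hochberg procedure was applied across every gene in the fit. Calls needed an adjusted p under 0.01 with a 2-fold difference or more (for the interaction, the adjusted p alone). Genotype differences were also tested by exact two-sided permutation of nRPKM. Named were Prss57, all 10 subunits, other integrin subunits, of each pathway list up to 4 called genes with the largest change per comparison, and for each subunit the 2 genes with the highest Pearson correlation of log2(nRPKM + 0.1). The members and lists were chosen with earlier results of these data known. Fits repeated with limma 3.58.1 (voom, the study's method), DESeq2 1.42.0, other scalings, filters, thresholds and libraries left out are summarised at the end. Tested on simulated counts for wild-type GMPs against CMPs (14967 genes), the calls recovered 90 of 100 genes changed by 1.5 and 100 of 100 changed by 3 on the log2 scale, with 2 unchanged genes called. Between the BMMC genotypes 86 and 96 of 100 were recovered. The changed genes were drawn above a minimum of reads, and no library was made to stand apart, so genes with few reads are not covered.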

Additional observations from a re-analysis of the deposited data

Results flagged for a closer look

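In 60 groups of 4 or 5 libraries (10 subunits in 6 groups), the highest and lowest library were compared with the others by Dixon's ratio of gap to range, which chance exceeds in about 1 of 20 groups, or 3 of 60. The ratio was exceeded 3 times, all among the 10 groups of Prss57-/- BMMCs and each time by library 3. The subunits of a group were read in the same libraries, so the 60 groups are not independent. The count of 3 therefore cannot be set against chance. Itgb1 was at 76.1 nRPKM there against 207 to 220.1 in the other 4 libraries of its group (ratio 0.906, critical value 0.71). Itga5 was at 12.8 nRPKM against 22.8 to 25.1 (ratio 0.814). Itgb3 was at 2.63 nRPKM against 45.5 to 55.5 (ratio 0.810). The same library was the lowest of its group for 6 further subunits and the highest for Itgb7, whose ratios stayed under the critical value.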

How the results depend on the processing

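Of the subunit calls repeated under each alternative, 475 values that were called stayed called, 12 kept their direction but were no longer called, 21 that were not called became called, and no called value changed sign. The 12 were Itgam in Prss57-/- GMPs against CMPs, Itgb3 in Prss57-/- BMMCs against GMPs and in wild-type BMMCs against CMPs, and Itgb1 in Prss57-/- BMMCs against CMPs, with the values given above, and the cause was not tested. Between wild-type GMPs and CMPs, 5 subunits in place of 2 were called at an adjusted p under 0.05 with any fold, and between Prss57-/- GMPs and CMPs 4 in place of 2. Library-size scaling left 1 call between Prss57-/- GMPs and CMPs. Fits that each omitted 1 library gave 1 to 3 calls there, 2 to 3 between wild-type GMPs and CMPs, 6 to 7 between wild-type BMMCs and CMPs and 4 to 7 between Prss57-/- BMMCs and CMPs, and the other comparisons kept their counts (6 for BMMCs against GMPs in each genotype and 0 between genotypes and in the interaction). No comparison between genotypes gave a subunit call under any alternative run.

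Replicate numbers did not pair the libraries, since in no comparison did every same-numbered pair correlate above 0.1, and 0 to 5 of 8 libraries (1 of 10 between BMMC genotypes) correlated best with their own number. With the replicate number as a block, the subunits called were 2 and 2 for GMPs against CMPs (wild-type and Prss57-/-), 6 and 5 for BMMCs against GMPs, 6 and 4 for BMMCs against CMPs, and 0 between genotypes and in the interaction. Itgb3 in Prss57-/- BMMCs against GMPs (edgeR adjusted p = 0.0292) and Itgb1 in Prss57-/- BMMCs against CMPs (edgeR adjusted p = 0.0282) were not called in that fit.

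Counts over all genes moved more. Between wild-type GMPs and CMPs, 1918 genes were called against 3391 with quality weights and 5664 at an adjusted p under 0.05 with any fold, and between Prss57-/- GMPs and CMPs 1259 against 2530 and 3222, with 2156 by DESeq2 and 2307 in 1 fit of all 26 libraries. At the looser threshold BMMCs against GMPs gave 12030 in place of 7630 genes (wild-type) and 11032 in place of 7150 (Prss57-/-). Between genotypes, the 1 gene called in GMPs became 2 with quality weights, with DESeq2 and at the looser threshold, and the 1 in CMPs became 2 with quality weights and 3 with DESeq2, and both became 0 with 10 counts required in every library. Depth limits Itgax and Itgam in CMPs, which had as few as 13 and 33 reads in a library.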
